A study of Mus musculus with 3 samples.

Results

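Interferon-stimulated genes with direct antiviral roles, together with those of the ISG15 conjugation pathway, were described as a set of 43 genes out of the 55536 genes listed in each library. They were chosen by gene symbol from a list grouped by function: ISG15 conjugation (ISGylation), PARP enzymes and a partner, restriction at membranes, RNA sensing and RNA binding, nucleases and nucleotide metabolism, nuclear bodies, and others. The list leaves out the IFIT, oligoadenylate synthetase, guanylate-binding and other large families of interferon-stimulated genes. All 43 symbols were found. The samples were 3 libraries of a single condition: macrophages grown from bone marrow of C57BL/6J mice, exposed to 100 ng/ml Lipid A for 12 h, washed for 12 h, and exposed again to 100 ng/ml Lipid A for 10 min. Lipid A is the membrane anchor of endotoxin and the ligand of Toll-like receptor 4. Cytosolic RNA was sequenced after removal of ribosomal RNA, with 1 µg used for each library. The labels number the libraries as biological replicates 1, 2 and 3 and give all 3 the same donor identifier, so the spread between them may be partly technical. They give no age or sex. Libraries of untreated or once-treated cells were not analysed here, so no value is a response to Lipid A.

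In macrophages, recognition of endotoxin by Toll-like receptor 4 leads through the adaptor TRIF and the factor IRF3 to secretion of interferon beta. The interferon acts back on the same cells through its receptor and the kinases JAK1 and TYK2, which leads to transcription of interferon-stimulated genes. The products of these genes interfere with viral entry, transcription, translation and release, and several of them restrain the response. ISG15 is a ubiquitin-like protein that is attached to other proteins by an activating enzyme, a conjugating enzyme and a ligase, and removed by a protease.

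Promoter sequences were taken from RefSeq for the GRCm38.p6 build, and 33 of the 43 genes had an entry. The 140 bases that end just before the RefSeq start are shown 5′ to 3′ on the strand of the gene for 4 genes. Isg15 is shown as the modifier at the centre of its pathway, Rsad2 and Cmpk2 as neighbours that were both highest in replicate 1, and Ddx60 as a gene past a test of spread described further on. No base is marked in capitals. The stretches are chr4:156200819-156200958 for Isg15 and chr12:26456453-26456592 for Rsad2 on the minus strand, and chr12:26469075-26469214 for Cmpk2 and chr8:61927947-61928086 for Ddx60 on the plus strand.
Isg15: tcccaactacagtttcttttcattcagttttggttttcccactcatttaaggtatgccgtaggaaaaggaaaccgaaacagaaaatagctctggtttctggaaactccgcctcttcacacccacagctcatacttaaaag
Rsad2: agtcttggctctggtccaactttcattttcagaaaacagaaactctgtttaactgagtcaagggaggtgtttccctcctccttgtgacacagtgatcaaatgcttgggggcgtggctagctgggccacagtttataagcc
Cmpk2: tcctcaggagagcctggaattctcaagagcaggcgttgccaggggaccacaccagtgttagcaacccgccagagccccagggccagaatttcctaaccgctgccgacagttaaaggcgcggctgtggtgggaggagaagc
Ddx60: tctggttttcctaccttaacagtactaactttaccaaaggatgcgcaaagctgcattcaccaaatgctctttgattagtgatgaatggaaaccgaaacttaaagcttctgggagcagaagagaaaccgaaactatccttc

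All 43 genes were present in every library. Each reached at least 1 TPM (transcript abundance per length, scaled to a fixed total) in all 3 libraries, 40 reached at least 10 TPM and 15 reached at least 100 TPM. The median of their mean TPM was 93.6, against 8.71 over the 9110 nuclear-encoded protein-coding genes that were expressed. Together they took 3.25%, 2.20% and 2.46% of the TPM of nuclear-encoded protein-coding genes in replicates 1, 2 and 3. The libraries held 32108408, 53165872 and 57117456 expected counts. Because the share of TPM in nuclear-encoded protein-coding genes was larger in replicate 1 (34.3%) than in replicates 2 and 3 (27.8% in each), libraries were compared on log2 CPM, counts relative to library size, with TMM scaling. The 10 macrophage markers examined were all at 1 TPM or more, and summed markers of lymphocytes and of fibroblasts did not exceed 0.16 TPM in any library. Summed neutrophil markers had 7.45, 7.11 and 11.3 TPM in replicates 1, 2 and 3. Of these, S100a8 had 2.64, 2.29 and 4.18 TPM and S100a9 had 4.75, 4.75 and 6.85 TPM. Ly6g and Retnlg were at 0 TPM in every library, and Camp, Mpo and Elane did not exceed 0.17 TPM. Summed dendritic cell markers had 1.75, 1.05 and 1.49 TPM, of which Ccr7 had 1.06, 0.72 and 1.21 TPM.

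The order of levels was broadly shared between libraries, but neighbours in it were not separated. The genes ran from Ifitm3 at 1012 TPM to Ifitm1 at 1.62 TPM. For 40 of the 42 pairs of neighbours the ranges over the libraries overlapped, and 16 pairs kept their order in every library. Only the steps below Helz2 and below Ifi27 had ranges apart. Of all 903 pairs of genes, 852 (94.4%) had the same order in every library. As a description across the 43 genes, Spearman's rho was 0.981 for replicates 1 and 2, 0.987 for replicates 1 and 3, and 0.996 for replicates 2 and 3.

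**Figure D1:**
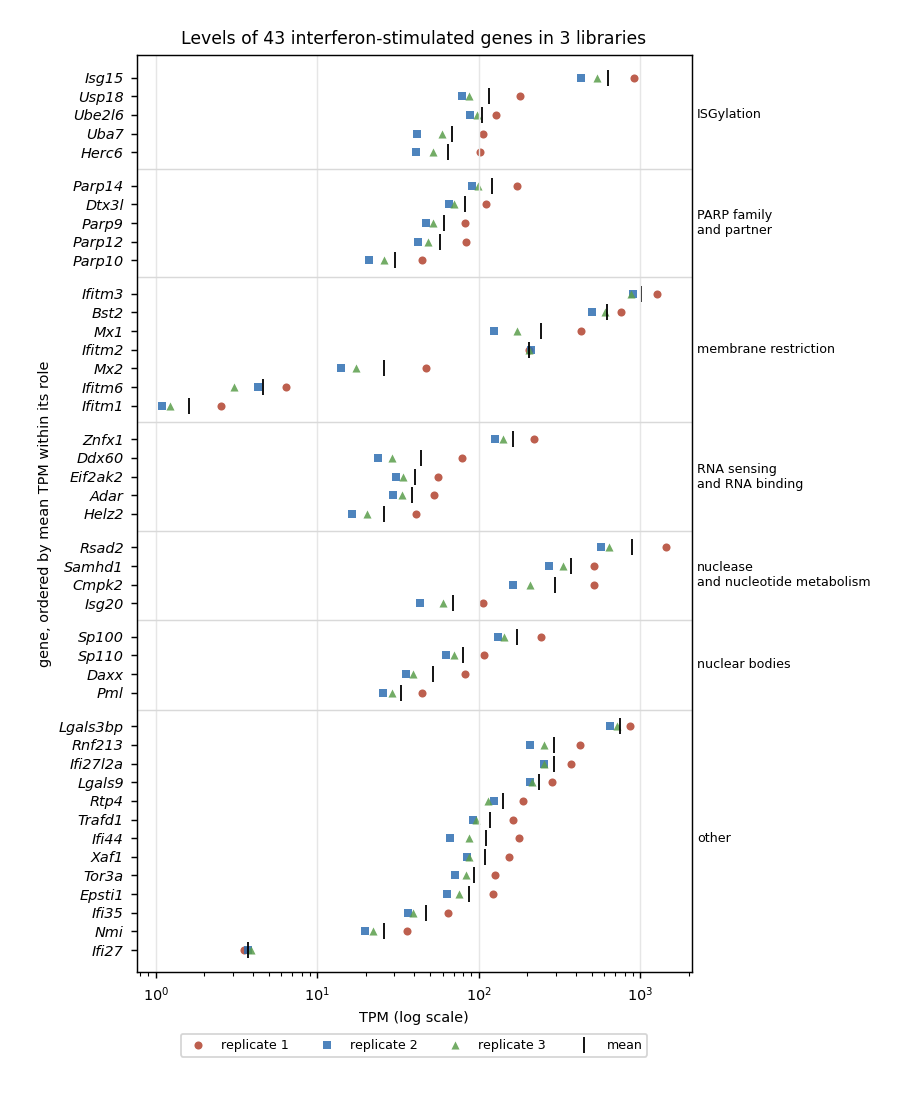
Level of each of the 43 genes in TPM (log scale) in replicates 1 (circles), 2 (squares) and 3 (triangles), with the mean as a black bar, ordered by mean within each role. Ifitm3, Rsad2, Lgals3bp, Isg15 and Bst2 lie highest and Ifitm1, Ifi27 and Ifitm6 lowest, and the circle of replicate 1 lies to the right of the other points for most genes.

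All 5 genes of the ISGylation pathway were detected, with the modifier above its enzymes in every library. Isg15 (chr4:156199424-156200818 in mm10, minus strand), which encodes the modifier itself, had 917, 432 and 537 TPM in replicates 1, 2 and 3, a mean of 628 ± 255 TPM (SD, n = 3 here and below). Usp18 encodes the protease that removes ISG15 and also restrains signalling from the interferon receptor. It had 180, 78.9 and 86.7 TPM, a mean of 115 ± 56.1 TPM. Ube2l6, the conjugating enzyme, averaged 105 ± 21.2 TPM. Uba7, the activating enzyme, had 106, 41.4 and 59.0 TPM, a mean of 68.8 ± 33.3 TPM. Herc6, the main ISG15 ligase in mice, had 102, 41.1 and 51.9 TPM, a mean of 64.9 ± 32.4 TPM. All 5 genes were highest in replicate 1 and lowest in replicate 2. On the log2 CPM scale replicate 1 lay above the mean of the others by 0.21 for Ube2l6 and by 0.64 to 0.85 for the other 4.

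Among the PARP genes, enzymes that attach ADP-ribose to proteins and nucleic acids, Parp14 was highest and Parp10 lowest. Parp14, which carries macrodomains that bind ADP-ribose, had 172, 90.8 and 99.8 TPM in replicates 1, 2 and 3, a mean of 121 ± 44.4 TPM. Dtx3l, a ubiquitin ligase that works as a complex with PARP9, had 111, 65.1 and 70.5 TPM, a mean of 82.1 ± 24.9 TPM. Its partner Parp9 averaged 60.7 ± 19.4 TPM. Parp12, a zinc-finger member of the family, had 83.2, 41.9 and 48.5 TPM, a mean of 57.8 ± 22.2 TPM. Parp10 had 44.4, 21.1 and 25.9 TPM, a mean of 30.5 ± 12.3 TPM. Replicate 1 was highest for all 5. The genes of the PARP9 complex lie head to head on chromosome 16, Dtx3l at chr16:35926511-35939151 on the minus strand and Parp9 at chr16:35938470-35972605 on the plus strand, and overlap by 682 bases. Parp14 lies beside them on the same chromosome. In replicate 1 these genes lay above the mean of the other libraries by 0.46 (Parp14), 0.44 (Dtx3l) and 0.44 (Parp9) log2 units. The strand setting of the counting is not stated, so reads within the overlap are uncertain for both genes.

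The genes of restriction at membranes spanned the widest range of levels. Ifitm3, which blocks the fusion of viruses with endosomes, had 1263, 898 and 876 TPM in replicates 1, 2 and 3. Its mean of 1012 ± 217 TPM placed it 21st among expressed protein-coding genes. Bst2, the tetherin that holds budding virus particles at the cell surface, had 761, 502 and 602 TPM, a mean of 622 ± 131 TPM. Both were highest in replicate 1. Ifitm2, a relative of Ifitm3, averaged 206 ± 3.00 TPM. On the log2 CPM scale it was highest in replicate 2, with replicate 1 lying 0.31 below the mean of the others. At the low end were Ifitm6 with 6.43, 4.28 and 3.05 TPM (mean 4.59 ± 1.71 TPM) and Ifitm1 with 2.54, 1.09 and 1.22 TPM (mean 1.62 ± 0.80 TPM). Ifitm1 rested on 41, 37 and 46 counts, whose exact 95% Poisson intervals were 29.4 to 55.6, 26.1 to 51.0 and 33.7 to 61.4 counts, which cover counting error only. These 4 Ifitm genes lie in a row on chromosome 7, yet replicate 1 departed from the others by -0.31 for Ifitm2, 0.79 for Ifitm1, 0.22 for Ifitm3 and 0.51 for Ifitm6.

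Mx1 and Mx2 encode dynamin-like GTPases that trap viral nucleocapsids. Mx1 (chr16:97447035-97462907, minus strand) had 433, 125 and 173 TPM in replicates 1, 2 and 3, a mean of 244 ± 166 TPM. Mx2 (chr16:97535308-97560900, plus strand) had 46.9, 14.0 and 17.3 TPM, a mean of 26.1 ± 18.1 TPM. In both genes replicate 1 stood well above the other libraries, by 2.33-fold for Mx1 and 2.18-fold for Mx2 on the CPM scale. C57BL/6 mice are known to carry a deletion in the coding part of Mx1 and a disrupted reading frame in Mx2.

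Genes of RNA sensing and RNA binding were below 50 TPM on average in 4 of 5 cases. Znfx1, a helicase-domain protein that binds viral double-stranded RNA, was highest with 219, 127 and 142 TPM in replicates 1, 2 and 3 (mean 163 ± 49.6 TPM). Ddx60 (chr8:61928087-62038244, plus strand), a helicase linked to RIG-I signalling, had 78.9, 23.8 and 28.9 TPM (mean 43.9 ± 30.5 TPM), and replicate 1 was 2.22-fold above the mean of the others on the CPM scale. Eif2ak2, the kinase PKR that halts translation on binding double-stranded RNA, averaged 40.3 ± 13.6 TPM. Adar, which converts adenosine to inosine in double-stranded RNA, had 53.1, 29.5 and 33.5 TPM (mean 38.7 ± 12.7 TPM). Helz2, a helicase-domain coactivator, had 40.9, 16.4 and 20.3 TPM (mean 25.9 ± 13.2 TPM). All 5 were highest in replicate 1, and replicate 1 departed least for Eif2ak2, by 0.35 log2 units.

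Genes of nucleic acid breakdown and nucleotide metabolism included some of the most abundant of the set. Rsad2 encodes viperin, which makes a nucleotide that terminates viral RNA chains. It had 1453, 573 and 644 TPM in replicates 1, 2 and 3, a mean of 890 ± 489 TPM. Samhd1, which depletes deoxynucleotides, had 521, 271 and 333 TPM, a mean of 375 ± 130 TPM. Cmpk2, a mitochondrial nucleotide kinase, had 517, 163 and 209 TPM, a mean of 296 ± 193 TPM. Isg20, an RNA exonuclease, had 106, 43.5 and 60.2 TPM, a mean of 69.8 ± 32.2 TPM. Every one of the 4 was highest in replicate 1. Rsad2 (chr12:26442746-26456452, minus strand) and Cmpk2 (chr12:26469204-26479837, plus strand) are neighbours that point away from each other across 12751 bases. Replicate 1 lay above the mean of the others by 0.99 log2 units for Rsad2 and 1.21 for Cmpk2.

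The genes of nuclear bodies, structures that repress incoming viral genomes, were highest for Sp100 and lowest for Pml. Sp100, a chromatin-binding component, had 244, 132 and 144 TPM in replicates 1, 2 and 3 (mean 173 ± 61.4 TPM). Its relative Sp110, 51170 bases away with 1 coding gene between them, had 108, 63.0 and 69.9 TPM (mean 80.2 ± 24.1 TPM). Daxx, a histone chaperone, had 82.3, 35.5 and 39.2 TPM (mean 52.3 ± 26.0 TPM). Pml, the scaffold of the bodies, had 44.6, 25.4 and 28.9 TPM (mean 33.0 ± 10.2 TPM). All 4 were highest in replicate 1, by 0.40 log2 units for Pml and 0.80 for Daxx, the ends of the range.

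The other 13 genes were led by Lgals3bp, a secreted glycoprotein that binds galectins, with 869, 649 and 717 TPM in replicates 1, 2 and 3 (mean 745 ± 113 TPM). Rnf213, a very large ubiquitin ligase, had 422, 209 and 252 TPM (mean 295 ± 113 TPM). Ifi27l2a averaged 293 ± 68.3 TPM. The galectin gene Lgals9 averaged 236 ± 42.7 TPM. Rtp4, a receptor-transporter protein, averaged 142 ± 39.7 TPM. Trafd1, a feedback inhibitor of Toll-like receptor signalling, averaged 118 ± 40.4 TPM, and Ifi44 averaged 111 ± 59.5 TPM. Xaf1, named for its binding to the apoptosis inhibitor XIAP, averaged 109 ± 39.8 TPM. Tor3a, of the torsin family of ATPases, averaged 93.6 ± 29.2 TPM and Epsti1 averaged 87.2 ± 31.0 TPM. Ifi35, which binds the product of Nmi, averaged 46.9 ± 15.7 TPM. Nmi itself had 36.1, 19.8 and 22.0 TPM (mean 26.0 ± 8.82 TPM). Ifi27 was lowest with 3.52, 3.75 and 3.88 TPM (mean 3.72 ± 0.18 TPM), on 88, 234 and 202 counts. Ifi27 and Ifi27l2a lie 1927 bases apart on chromosome 12. In replicate 1 they departed in opposite directions, by -0.47 log2 units for Ifi27 and 0.25 for Ifi27l2a.

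Most of these genes were highest in the same library. On the log2 CPM scale 40 of the 43 were highest in replicate 1, against 39.8% of the 12515 genes tested. The exceptions were Ifitm2 and Ifi27, highest in replicate 2, and Lgals3bp, highest in replicate 3. The median departure of replicate 1 from the mean of the others was 0.50 over the 43 genes and -0.01 over all genes tested, of which the central 95% lay between -0.79 and 1.54. By role the median departure was 0.89 for nuclease and nucleotide genes, 0.80 for ISGylation and 0.51 for membrane restriction, a group that here included Mx1 and Mx2. It was 0.48 for nuclear bodies, 0.46 for PARP genes and for the other genes, and 0.38 for RNA sensing. Replicate 1 was at least 2-fold above the mean of the others for 4 genes, Mx1, Cmpk2, Ddx60 and Mx2, against 5.12% of all genes tested. Between the remaining libraries, replicate 3 was above replicate 2 for 37 of the 43, against 51.8% of all genes tested. In these bulk samples fewer responding cells and less RNA per cell cannot be told apart.

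**Figure D2:**
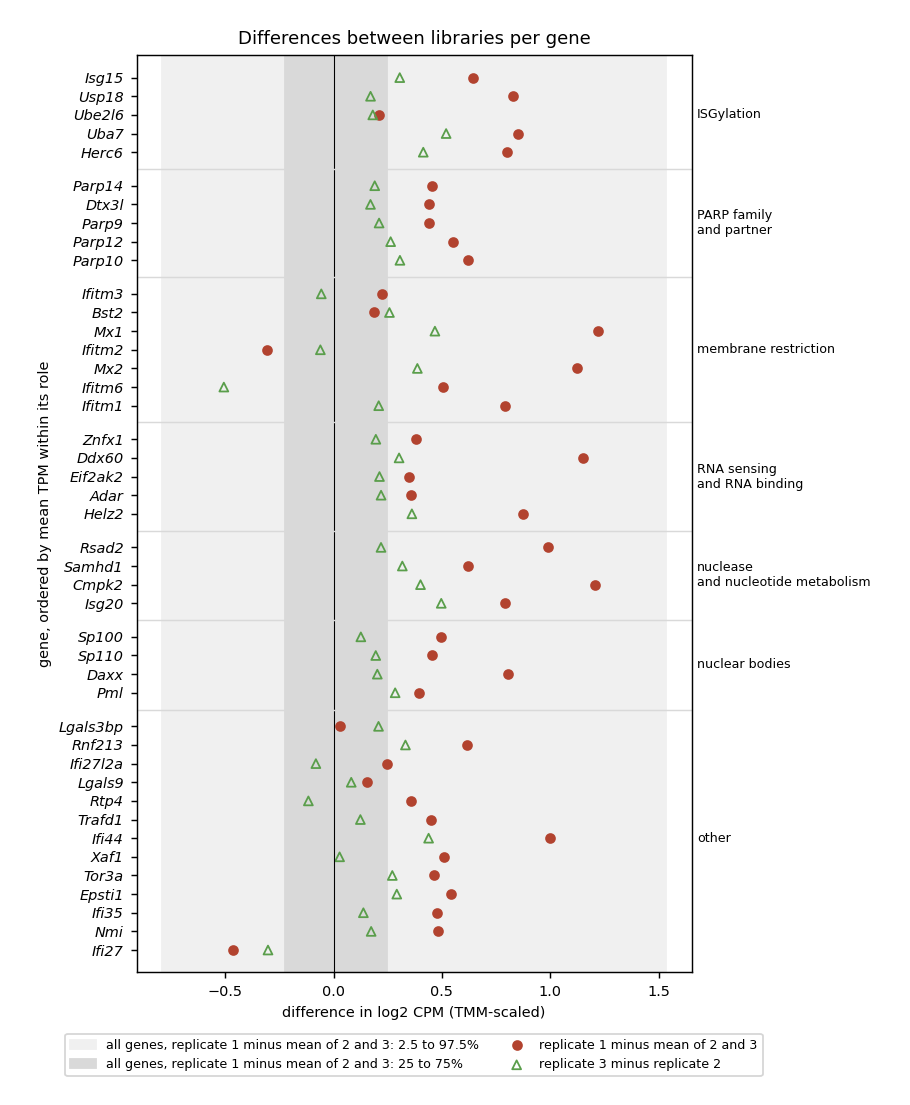
Difference in TMM-scaled log2 CPM per gene, for replicate 1 minus the mean of replicates 2 and 3 (filled circles) and replicate 3 minus replicate 2 (open triangles). Grey bands hold the central 50% and 95% of all 12515 genes tested for the first difference, and the circles of 41 genes lie above 0, from 0.03 for Lgals3bp to 1.22 for Mx1.

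Most other interferon genes, and most of the nuclear RNAs examined, were also higher in replicate 1. Of 11 genes of interferon signalling, 10 were highest in replicate 1, with a median departure of 0.51. The departure was only 0.006 to 0.086 log2 units for Ifnar2, Jak1, Irf3, Irf9 and Ifnar1. It ran from 0.51 for Tyk2 to 1.87 for Ifnb1 in the rest of the list. Ifnb1, which encodes interferon beta, had 4.04, 0.79 and 0.97 TPM in replicates 1, 2 and 3, on 95, 39 and 51 counts. Irf7, the factor that amplifies interferon production, had 1019, 544 and 623 TPM, with a departure of 0.54 log2 units. All 6 IFIT genes and 8 of 9 genes of the oligoadenylate synthetase system were highest in replicate 1, with median departures of 0.73 and 0.38. Of 10 macrophage markers, 3 were highest in replicate 1 and the median departure was -0.10. Of 8 nuclear-retained RNAs, 6 passed the count filter and 5 of those were highest in replicate 1, with a median departure of 2.88. Meg3 and Miat were at 0 counts. Malat1, a long noncoding RNA, had 1333, 118 and 152 TPM in replicates 1, 2 and 3. Xist, the RNA of X inactivation, had 32.6, 0.42 and 0.35 TPM, and Kcnq1ot1 had 0.46, 0.01 and 0.01 TPM. The exception was Rn7sk, the most abundant of them, which was highest in replicate 3, with replicate 1 lying 0.31 log2 units below the mean of the others. The part of nuclear RNA in the higher levels of the 43 genes in replicate 1 was not tested.

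The differences between libraries exceeded counting error for all 43 genes (chi-square of each gene's counts under equal rates, Benjamini-Hochberg adjustment over all genes), as for 71.5% of all genes tested. Without replicate 1 this held for 40 of the 43, the exceptions being Ifitm1, Ifi27 and Xaf1, against 40.4% of all genes. The negative binomial deviance test against the trended dispersion of edgeR called 3 of the 43, against 2.03% of all genes, and 13 of the 43 had an unadjusted p under 0.05, against 6.06% of all genes. These were Mx2 with an adjusted p of 0.00202, Mx1 with 0.0262 and Ddx60 with 0.0315. Cmpk2 had an adjusted p of 0.0607 and Isg20 one of 0.102. Leaving out any library left fewer calls, in fits with only 2 libraries. Without replicate 1 the same edgeR test called 0 of the 43, against 0.906% of all genes, and 5 had an unadjusted p under 0.05, against 5.47% of all genes. Without replicate 2 it called 0, against 1.22% of all genes, and 8 had an unadjusted p under 0.05, against 4.42% of all genes. Without replicate 3 it called Mx2 alone, against 1% of all genes. There the adjusted p was 0.0352 for Mx2, 0.16 for Mx1 and 0.215 for Ddx60. In that fit 13 of the 43 had an unadjusted p under 0.05, against 4.94% of all genes. These p-values measure only the spread between these libraries.

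The biological coefficient of variation (BCV) of edgeR, the relative spread between libraries beyond counting error, had a median of 0.196 over the 43 genes and 0.172 over all genes tested. It lay above the trend at the gene's mean level for 27 of the 43, against 20.4% of all genes. Mx1 had a BCV of 0.352 against a trend of 0.189, Cmpk2 had 0.349 against 0.198, Ddx60 had 0.327 against 0.178, and Mx2 had 0.314 against 0.145. The highest BCV was that of Ifitm1, 0.375, which lay below its trend of 0.416. Ifitm6 had 0.320, also below its trend of 0.359. Ifi27l2a had the lowest BCV, 0.134. Without replicate 1 the medians were 0.106 over the 43 genes and 0.105 over all genes tested.

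**Figure D3:**
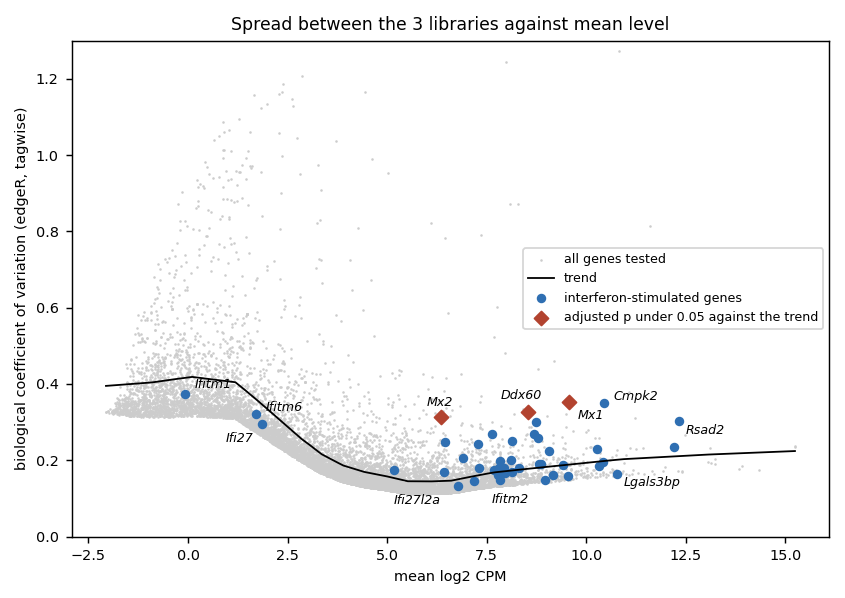
Tagwise BCV against mean log2 CPM for all genes tested (grey), the trend (line), and the 43 genes (blue, or red diamonds where the adjusted p of the trend test was under 0.05). Mx1, Mx2 and Ddx60 lie at 0.352, 0.314 and 0.327, above a trend of 0.189, 0.145 and 0.178 at their levels.

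Of the 43 genes, 39 had several annotated transcripts. In 15 genes a single transcript made at least 90% of the gene's TPM in every library in the expected-count table. In 11 of these there was a choice between several. In a second transcript table, made directly from the reads, Tor3a-201 of these had 68.0%, 72.5% and 73.4%, and Cmpk2-201 had 84.8% in replicate 1. Ddx60-201 led with 73.8% to 88.4% in the expected-count table and had 26.0%, 36.3% and 40.6% in the second table. The leading transcript, the one with the highest mean share over the libraries, was not of the protein-coding class in 3 genes. In Mx1 it was Mx1-205, annotated as a target of nonsense-mediated decay with a coding sequence of 927 bases, at 50.5%, 54.6% and 54.6% in replicates 1, 2 and 3. In the table made directly from the reads, Mx1-205 also led but with 20.5%, 36.7% and 41.9%. The Mx1 transcript with the longest coding sequence, Mx1-201 with 1881 bases, made 0.14%, 0.03% and 0.05% in the expected-count table and 6.42%, 0.68% and 0.83% in the table made directly from the reads. In Mx2 it was Mx2-202, of the polymorphic pseudogene class, at 80.4%, 94.3% and 97.4%. In Xaf1 it was Xaf1-201, annotated for nonsense-mediated decay, at 39.7%, 43.7% and 44.9%.

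The leading transcript made under 50% in at least 1 library in 10 genes, Xaf1 among them. A leader by mean share did not always lead in each library. In replicate 3 the retained-intron transcript Ifi27-209 had 38.3%, against 32.7% for the leader Ifi27-205. Uba7-201, the protein-coding form of the activating enzyme, made 32.5%, 49.8% and 49.8% in replicates 1, 2 and 3, and the retained-intron transcript Uba7-212 made 33.2%, 39.9% and 42.0%. Samhd1-206 led Samhd1 with 44.9%, 39.8% and 40.3%, beside the retained-intron form Samhd1-210 with 16.3%, 25.1% and 27.5%. Both retained-intron forms had their lowest share in replicate 1 in the expected-count table. In the table made directly from the reads Uba7-212 had 18.3%, 22.8% and 17.9%, and Samhd1-210 had 15.2%, 14.2% and 13.2%, highest in replicate 1. There Uba7-201 had 30.6%, 65.2% and 72.2%, and all Uba7 retained-intron transcripts together had 50.9%, 27.2% and 22.1%. The other leaders under 50% in at least 1 library, given as means, were Sp100-202 with 31.4%, Ifi27-205 with 34.4%, Trafd1-201 with 42.2%, Znfx1-202 with 42.4%, Pml-201 with 50.1%, Nmi-205 with 51.3% and Adar-203 with 52.4%. The table made directly from the reads named another leader in 3 genes: Znfx1-201 in place of Znfx1-202, Sp100-204 in place of Sp100-202 and Adar-201 in place of Adar-203. The short form Rnf213-203 took 46.7%, 46.9% and 46.6% of Rnf213 in the expected-count table and 11.6%, 10.3% and 7.30% in the table made directly from the reads.

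Adar is known for a long cytoplasmic form from an interferon-inducible start and a shorter, mostly nuclear form from a constitutive start. The coding transcripts that begin at position 89730748 of chromosome 3, with a longest coding sequence of 3534 bases (1178 codons), made 85.4%, 91.0% and 91.7% of Adar TPM in replicates 1, 2 and 3. The transcript from position 89715022, with 2790 bases (930 codons), made 3.54%, 8.54% and 7.81%. The table made directly from the reads gave 79.1%, 88.1% and 89.96% for the first start and 3.97%, 10.9% and 9.35% for the second. The start of the long form thus led in every library in both tables.

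**Figure D4:**
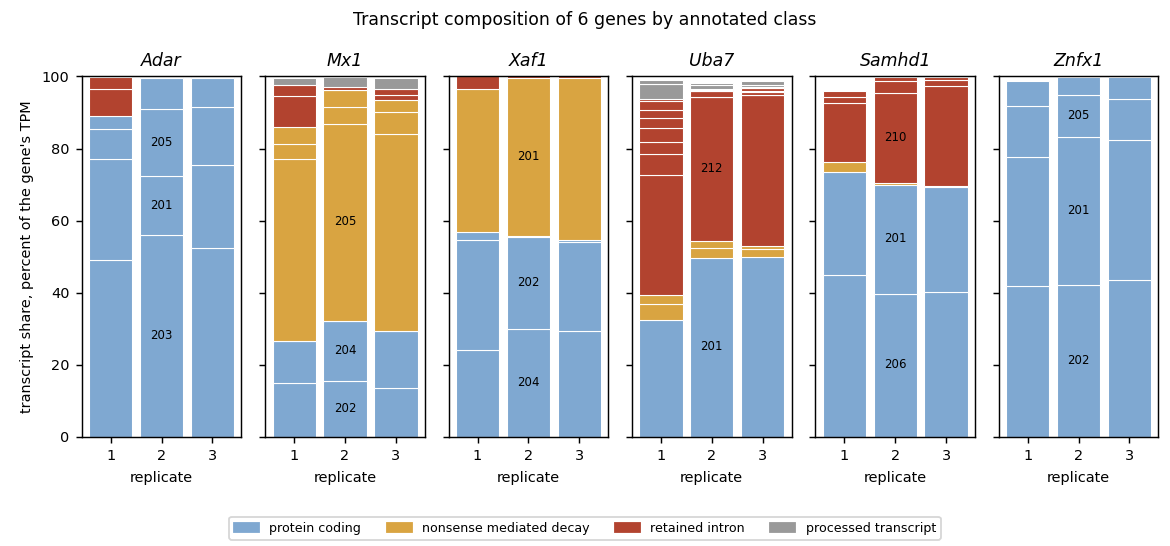
Share of each transcript in its gene's TPM for Adar, Mx1, Xaf1, Uba7, Samhd1 and Znfx1 in replicates 1, 2 and 3, coloured by annotated class, with transcript numbers on the larger segments and transcripts with a mean share under 1% in both tables not drawn. Transcripts annotated for nonsense-mediated decay (ochre) led Mx1 with 50.5% to 54.6% in the expected-count table drawn here and Xaf1 with 39.7% to 44.9%, and retained-intron transcripts (red) made 55.3%, 44.0% and 45.3% of Uba7.

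Transcripts annotated as retaining an intron took a larger share in replicate 1. Among the 29 genes with such a transcript, the share was highest in replicate 1 in 25, against 77.5% of all genes with such a transcript. Its median was 6.66%, 0.86% and 0.60% in replicates 1, 2 and 3 over the 29 genes, and 5.62%, 0.70% and 0.69% over all genes. The exceptions were Samhd1, Pml, Parp9 and Ifi27. In the table made directly from the reads the share was highest in replicate 1 in 29 of 29, against 86.8% of all genes. The leading transcript's share was lowest in replicate 1 in 27 of the 39 genes with several transcripts, against 55.5% of all genes. Retained-intron transcripts were also left out of the counts, a setting chosen after seeing the data. Then 40 of the 43 genes were highest in replicate 1, and the median departure was 0.50, against -0.007 over all genes tested. The trend test called 3 of the 43, Mx1, Mx2 and Ddx60, against 1.96% of all genes. The setting takes out only counts assigned to annotated retained-intron transcripts. The part of other unspliced or nuclear RNA in the departure was not tested.

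**Figure D5:**
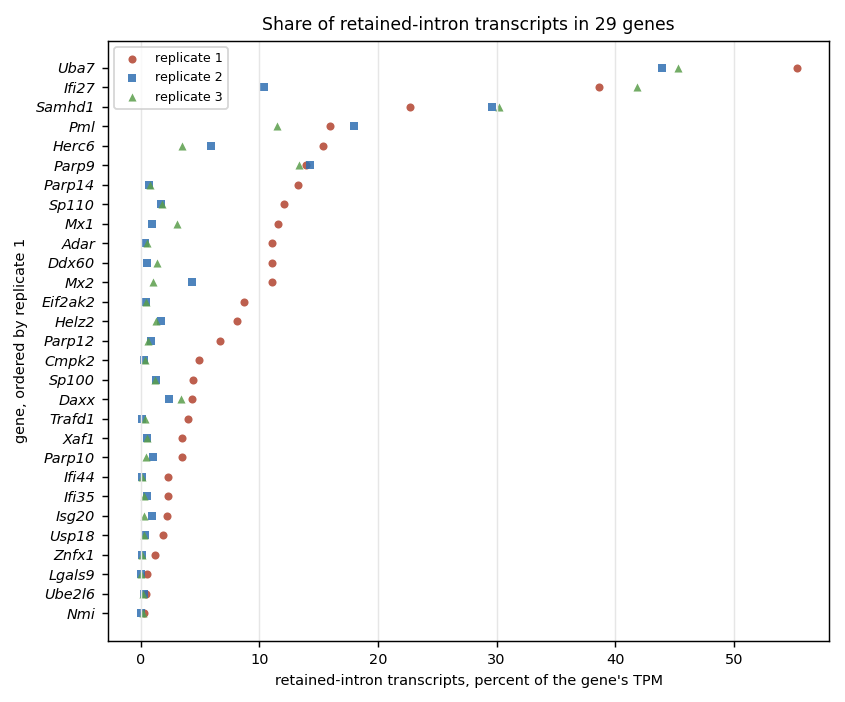
Share of retained-intron transcripts in the gene's TPM, in the expected-count table, for the 29 genes with such a transcript. Genes are ordered by replicate 1, with replicates 1 (circles), 2 (squares) and 3 (triangles). Uba7 lies highest with 55.3%, 44.0% and 45.3%, and replicate 1 lies to the right of the other points in 25 of the 29 genes.

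The uncertainty of assigning reads, given by the deposited posterior SD, was small beside these counts. The posterior SD does not give how many reads were shared with other genes. It was above 0 for 16 of the 43 genes, reached 8.73 counts at most, in Herc6, and was at most 0.0697% of a gene's count, in Mx2. Levels differed more between the deposited tables. The mean TPM in the table made directly from the reads was 0.495 of that in the expected-count table at the median. It ran from 0.318 in Rnf213 to 0.849 in Ddx60, and Spearman's rho between the tables over the 43 genes was 0.989. These are ratios of means over the libraries, and single libraries differed. In the table made directly from the reads Isg15 had 617, 154 and 152 TPM in replicates 1, 2 and 3, against 917, 432 and 537 TPM. Bst2 had 509, 177 and 171 TPM there, against 761, 502 and 602 TPM.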

How the data were processed

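Total RNA-seq of the cytosolic fraction was described for 3 libraries of a single group. Expected counts of genes and of transcripts were deposited by the authors as estimates with decimals, and the notes beside the files name mm10 and GENCODE M21. The same deposited tables hold TPM, scaled over all listed entries, and the transcript's share as a percent of its gene's TPM. A further deposited transcript table, made directly from the reads, holds estimated counts and TPM. The versions of the aligner and counter were not given in the sources used here, nor was the strand. Entries that name no gene held 0.435%, 0.134% and 0.0823% of counts and stayed out of the tests.

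For edgeR 4.0.16 (R 4.3.3) the expected counts were rounded to integers, filtered by filterByExpr (12515 genes kept) and scaled by TMM. Log2 CPM used a prior count of 2. Spread between libraries was tested per gene by chi-square against a single rate and by the negative binomial deviance of an intercept-only fit at the trended dispersion, with Benjamini-Hochberg adjustment over all genes at 0.05. Both tests were tried on simulated data, and the outcome is not reported here. A departure is a library's log2 CPM minus the mean of the other libraries. Alternatives were library totals without TMM, size factors of DESeq2 1.42.0, no filter, TPM rescaled over nuclear-encoded protein-coding genes, the table made directly from the reads, and each library left out. Members and lists were chosen with earlier results of these data known. By rule, every gene is given with its mean TPM, and per-library values are given for the 2 highest and 2 lowest of each role and for genes past the trend test. Leading transcripts are named where they are not protein coding, fall under 50% in any library, or differ between tables. Genes of other lists, and Cmpk2 and Isg20 in the test of spread, were picked after their values were seen. So were the Uba7, Samhd1, Rnf213, Ifi27 and Adar transcripts beyond the leaders. The same holds for the Tor3a, Cmpk2 and Ddx60 leaders and for the genes named with their BCV. It also holds for the Isg15 and Bst2 levels in the table made directly from the reads. Coordinates are GENCODE M21 on mm10, and promoters are RefSeq on GRCm38.p6. A motif search of the promoters was run, then dropped, and is not reported here. Of the interferon signalling list, 1 gene is not reported here and was left out of the list's counts. Tables and figures were made with Python 3.11.15, pandas 2.3.3, scipy 1.17.1 and matplotlib 3.10.9.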

Additional observations from a re-analysis of the deposited data

How the results depend on the processing

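The count of 43 genes beyond counting error stayed between 40 and 43 under every setting tried, and 40 genes were highest in replicate 1 under every scaling, in the table made directly from the reads and without retained-intron transcripts, a setting chosen after seeing the data. Over all genes tested, 71.5% exceeded counting error with all 3 libraries and 40.4% without replicate 1, and 39.8% were highest in replicate 1 with TMM. The 3 genes beyond the trend of edgeR, against 2.03% of all genes, became 1 (Mx2) with no expression filter, against 0.912%. When a library was left out they became 0 to 1, against 0.906% to 1.22% of all genes. The median of mean TPM, 93.6 as reported, was 308 when TPM was rescaled over nuclear-encoded protein-coding genes and 50.5 in the table made directly from the reads; it was 76.9 to 105 with a library left out. At least 1 TPM in every library was reached by 41 genes and at least 10 TPM by 34 in that table. By gene, mean TPM moved by more than its SD in 43 of 43 genes with rescaling and in 35 of 43 in the table made directly from the reads, and the leading transcript's share moved in 26 of 39. No paired analysis was possible because there is 1 group. Levels under 5 TPM (Ifitm6, Ifi27, Ifitm1) rest on few counts, and 3 libraries with 1 donor identifier limit every test.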
